A study of Mus musculus with 7 samples.

Results

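Glucocorticoid receptor (NR3C1) sites were examined around 8 genes of the fibroblast extracellular matrix in mouse embryonic fibroblasts: Col1a1, Col1a2, Col3a1, Col4a1, Fn1, Lox, Eln and Timp3. Every deposited ChIP-seq peak summit within 100 kb of an approximate mm9 start point of a gene was taken, and summits no more than 200 bp from a neighbour were linked into sites. The windows held 237 summits in 80 sites, of 35316 sites in the genome. The points were 94.8 Mb on chromosome 11 for Col1a1, 4.46 Mb on chromosome 6 for Col1a2, 45.37 Mb and 71.7 Mb on chromosome 1 for Col3a1 and Fn1, 11.31 Mb on chromosome 8 for Col4a1, 52.69 Mb on chromosome 18 for Lox, 135.22 Mb on chromosome 5 for Eln and 85.76 Mb on chromosome 10 for Timp3. They are rounded to 10 kb, so distances are given from the point and not from a start site, as negative below and positive above it in genome coordinates. Exon, intron and UTR positions are not analysed here, and a site in a window is not assigned to the gene that names it.

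The cells were cultured from embryos of dams 14 to 17 days post coitum and used between passage 4 and passage 11. The groups were wild type with ethanol vehicle (1 library, from pooled material because little was available), wild type with dexamethasone, a synthetic glucocorticoid (2 libraries), Klf15-/- with vehicle (2) and Klf15-/- with dexamethasone (2), each after 1 h. Nothing in the labels ties a library to a culture of its own, so the spread within a group may be technical. The lists held 7325 to 10034 summits with vehicle and 15628 to 20169 with dexamethasone, and the read depth is unknown. The Klf15-/- vehicle libraries held 51.8% and 42.3% of each other's sites over the genome, and dexamethasone replicates 71.5% to 77.5%. The first library of the Klf15-/- vehicle group differed most from the rest, with 414 neighbouring summits closer than 200 bp (at most 4 in the others) and 197 summits on chromosome Y. Chromosome Y had 75 to 78 summits in the other Klf15-/- lists and 1 or 2 in the wild-type lists, so the genotypes also differ there.

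The extracellular matrix is the network of secreted proteins that fibroblasts build around themselves. Fibrillar collagens (types I and III) give it tensile strength, elastin gives it recoil, and fibronectin links it to cells. Type IV collagen forms the sheet of basement membranes. Lysyl oxidase cross-links collagen and elastin, and TIMP3 inhibits the metalloproteinases that degrade the network. Glucocorticoids are known to lower collagen synthesis in fibroblasts and to thin the skin. The ligand-bound receptor binds DNA at response elements, many of them far from promoters, and KLF15 is a Krüppel-like zinc-finger factor whose own gene is induced by glucocorticoids.

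Promoter sequences are shown for Col1a2 and Col3a1, since these were the genes with a receptor site within 5 kb of the point and an entry among the RefSeq promoters, which held 4 of the 8 genes (Col1a2, Col3a1, Col4a1 and Timp3). Each is the 250 bases before the annotated start on GRCm38.p6, plus strand, 5′ to 3′. Capitals mark matches, on either strand, to GGGCGG (the GC box bound by Sp and Krüppel-like factors) or CCAAT.
Col1a2: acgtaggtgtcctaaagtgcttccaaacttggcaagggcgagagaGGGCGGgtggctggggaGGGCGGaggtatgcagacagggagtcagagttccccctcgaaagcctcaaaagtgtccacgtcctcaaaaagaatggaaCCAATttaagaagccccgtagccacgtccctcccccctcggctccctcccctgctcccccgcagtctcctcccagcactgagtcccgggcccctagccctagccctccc
Col3a1: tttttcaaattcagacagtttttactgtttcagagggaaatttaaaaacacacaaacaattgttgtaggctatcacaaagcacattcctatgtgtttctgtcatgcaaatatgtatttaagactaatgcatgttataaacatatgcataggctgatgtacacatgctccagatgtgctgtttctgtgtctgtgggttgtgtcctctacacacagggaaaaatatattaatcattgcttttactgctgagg
The Col1a2 stretch held 2 GC boxes, 205 and 188 bases before the start, and 1 CCAAT box, 109 bases before it. The Col3a1 stretch held neither. GC boxes were in 32.7% and CCAAT boxes in 33.8% of the 32851 RefSeq promoter stretches. The palindromic glucocorticoid response element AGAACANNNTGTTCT (in 0.00913% of stretches), its single repeat AGAACA (16.1%) and the AP-1 motif TGANTCA (6.75%) were found in neither gene's stretch on either strand. The single repeat overlaps the palindrome by construction. The summits are on mm9, so whether a summit lies within these letters was not determined.

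The matrix loci carried more receptor sites than most windows of the genome, and they differed widely among themselves. Col4a1 had 24 sites and Lox 18, together 52.5% of all 80. Timp3 had 8, Col1a1 and Eln 7 each, Fn1 6, and Col1a2 and Col3a1 5 each. Across 13213 consecutive windows of 200 kb the median was 1 site, the 95th percentile was 10, and 63.3% of windows held any. Only 0.182% of them held as many sites as the Col4a1 window and 0.447% as many as the Lox window, against 22.1% for Col1a2 and Col3a1. The windows of the genome include stretches without genes, so this is a description of where the loci lie and not a test. In the GRCm38 gene order, Col4a1 overlaps Col4a2, which encodes the partner chain of type IV collagen, and Timp3 lies within Syn3. The neighbouring coding genes were Srfbp1 and Zfp474 for Lox, Limk1 and Tmem270 for Eln, Atic and Mreg for Fn1, and Gulp1 and Col5a2 for Col3a1.

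**Figure D1:**
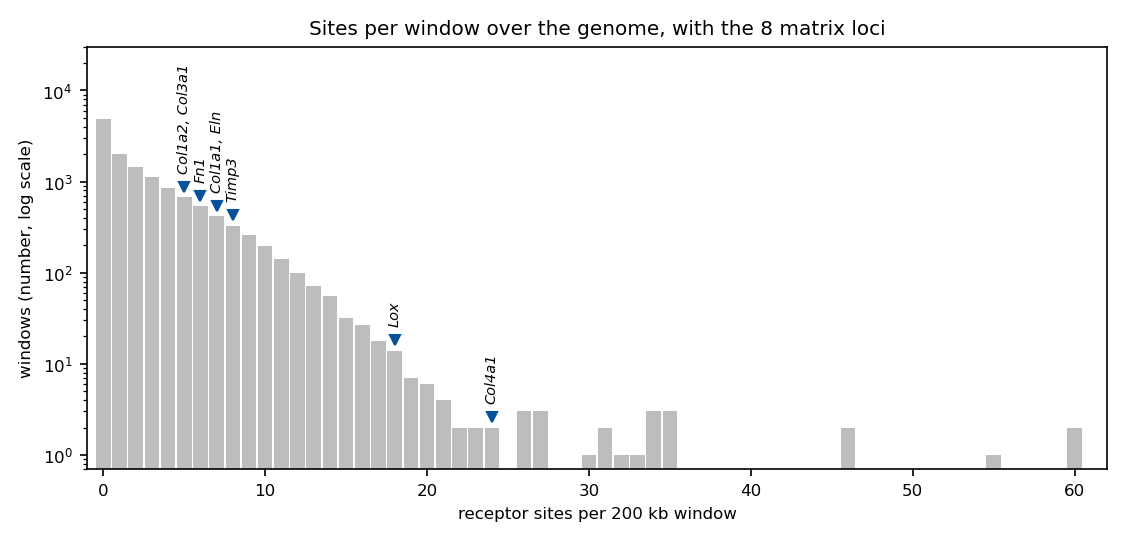
Number of consecutive 200 kb windows of the genome (log axis) by the number of receptor sites they hold. Triangles mark the site counts of the 8 windows centred on the matrix genes: Col4a1 (24) and Lox (18) lie in the thin upper tail, and the other 6 between 5 and 8 sites.

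Summits in these windows were more numerous after dexamethasone in both genotypes, but so were summits everywhere. The wild-type vehicle list had 24 summits in the 8 windows, and the wild-type dexamethasone lists had 43 and 44. The Klf15-/- vehicle lists had 14 and 17, and the Klf15-/- dexamethasone lists 47 and 48. No vehicle list reached any dexamethasone list. Per 10000 summits of the list, the values were 23.9 in the wild-type vehicle library and 27.5 and 25.99 in the wild-type dexamethasone libraries. They were 19.1 and 21.02 in the Klf15-/- vehicle libraries and 23.5 and 23.8 in the Klf15-/- dexamethasone libraries. On this scale the treatments overlapped across genotypes, since the wild-type vehicle library lay above both Klf15-/- dexamethasone libraries. Within each genotype every dexamethasone library lay above every vehicle library. The mean was 25.2 over 4 dexamethasone libraries and 21.4 over 3 vehicle libraries, a difference of 3.85 (exact two-sided permutation test, p = 0.171, where the smallest possible is 0.0571). The 95% counting interval of a single library was wide, for example 19.9 to 37.0 for the first wild-type dexamethasone library (exact binomial, counting error only). With windows of 50 kb on either side the pooled difference was 0.49, and without the first Klf15-/- vehicle library it was 2.73.

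After dexamethasone, the Klf15-/- share of summits in the windows was 23.7 ± 0.21 per 10000 (SD, n = 2) and the wild-type share 26.8 ± 1.08 (n = 2). The genotypes did not overlap, and the difference was -3.10 (exact two-sided permutation test, p = 0.33, the smallest that 2 libraries against 2 allow). The direction rested on the scale and on low-scoring summits. In plain numbers of summits the Klf15-/- lists were higher by 4, with summits above the median score of their list the difference was 0.36, and in lists cut to equal length it was 0.

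**Figure D2:**
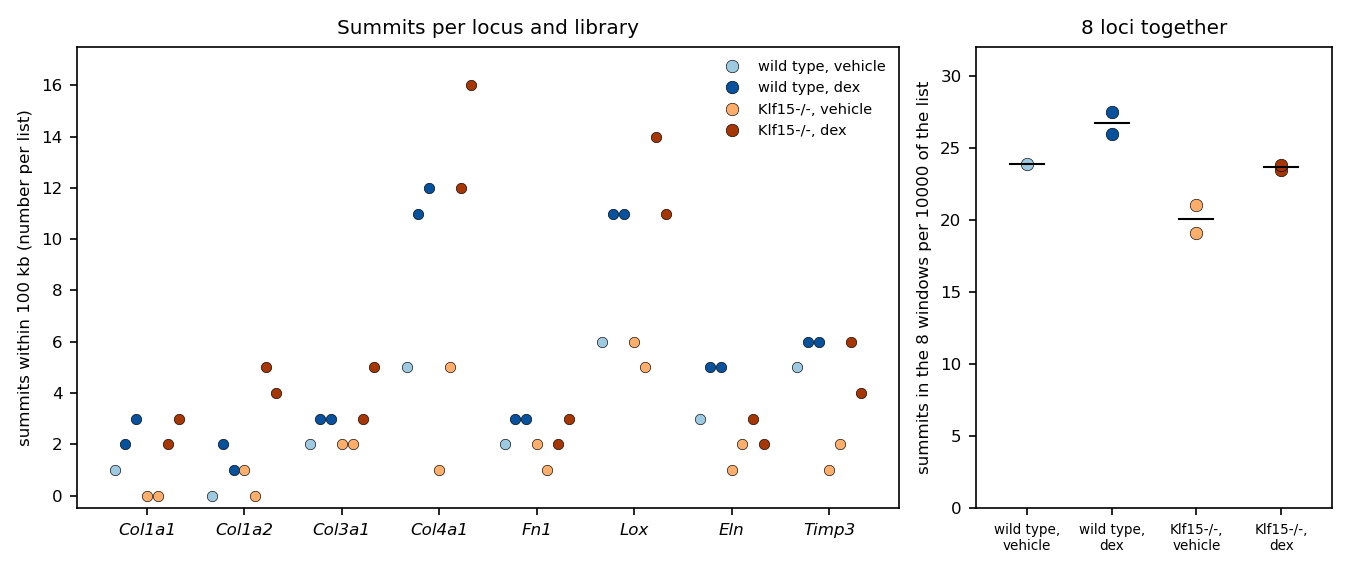
Left, summits within 100 kb of each gene's point in each of the 7 lists; right, summits in the 8 windows together per 10000 summits of the list, with a point per library and a line at the group mean. Col4a1 and Lox have the highest counts in every dexamethasone list. On the scaled axis the wild-type vehicle library (23.9) lies above the Klf15-/- and below the wild-type dexamethasone libraries.

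By locus, every dexamethasone list held more summits than every vehicle list at 4 of 8 genes (Col1a1, Col3a1, Col4a1 and Lox), where 21.9% of genome windows with a summit showed this. Most of those genome windows held fewer sites than any of the 8, and the shares in this paragraph were not matched for number of sites. After scaling to list length, every dexamethasone list was above every vehicle list at 1 of 8, Col1a1, against 10.4% of windows. The margin there was slight: 1.00 per 10000 in the first Klf15-/- dexamethasone list (2 summits) and 0.997 in the wild-type vehicle list (1 summit). Between genotypes after dexamethasone, both Klf15-/- lists held more summits than both wild-type lists at 1 of 8, Col1a2 (25.2% of windows), and both wild-type lists held more at 1 of 8, Eln (7.14% of windows). Scaled to list length, Col1a2 was again higher in Klf15-/- (23.4% of windows), and Fn1, Eln and Timp3 were higher in wild type (28.9% of windows). In plain numbers, a Klf15-/- list equalled both wild-type lists at Fn1 (3 summits) and at Timp3 (6 summits). At Fn1 and Timp3 the genotypes thus separated only on division by the longer Klf15-/- lists. The share of a list that falls on a chromosome also differed between genotypes. Chromosome 10, which carries Timp3, held 7.59% of wild-type and 6.21% of Klf15-/- dexamethasone summits, and chromosome 8, which carries Col4a1, held 5.76% and 5.00%. Chromosome 1, with Col3a1 and Fn1, went the other way, with 6.56% and 7.29%. The part of these chromosome shares in the differences at single loci was not tested. Taken per 10000 summits of the chromosomes that carry the 8 genes, the wild-type share (67.5 ± 1.78, SD, n = 2) was above the Klf15-/- share (60.9 ± 0.65, n = 2). This scale pools those chromosomes and does not set each window against its own chromosome.

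Sites held by all 4 dexamethasone lists made up a larger share of the pooled matrix sites than of all sites, unevenly by locus. The part of them with a vehicle summit was close to that elsewhere. Of the 80 sites, 29 were held by all 4 dexamethasone lists (36.3%, 95% interval 25.8 to 47.8%, against 25.4% of all sites). They were 9 of 18 at Lox, 8 of 24 at Col4a1, 4 of 8 at Timp3 and 3 of 5 at Col3a1. Fn1 had 2 of 6, Eln 2 of 7, Col1a2 1 of 5 and Col1a1 0 of 7. At a linkage gap of 100 bp Col3a1 had 2 and Col1a2 0. Of these 29, 21 had a vehicle summit (72.4%, 52.8 to 87.3%, against 69.1% of all such sites), 7 were held by all 7 lists and 8 by no vehicle list. Sites held by all 7 lists were 8.75% of the matrix sites (6.22% of all sites), and sites of all 4 dexamethasone lists without a vehicle summit were 10.0% (7.85%). Vehicle summits were present at 33 matrix sites (41.3%, against 45.8% of all sites), and 21 of these 33 were in all 4 dexamethasone lists (63.6%, 45.1 to 79.6%, against 38.3% of all vehicle sites). A single list held 32 of the 80 sites (40.0%, against 38.7% of all sites), with a median score percentile of 24.9. The score percentile of a summit is the share of its own list with a lower authors' score. For sites of all 4 dexamethasone lists, the percentile in the list where the site ranked lowest had a median of 67.9 at the matrix loci and 50.9 over all such sites. The share of top-scoring sites was close to that elsewhere. Percentile 80 or above in each of the 4 lists was reached by 7 of the 29 (24.1%, 10.3 to 43.5%, against 20.7% of all such sites). Percentile 90 or above was reached by 2 (6.90%, 0.846 to 22.8%, against 10%). These intervals cover counting error only, and sites of a locus are not independent.

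In wild type, 33 matrix sites were held by both dexamethasone libraries and 9 of them had no summit in any vehicle list of either genotype (27.3%, 13.3 to 45.5%, against 38.5% of all such sites). In Klf15-/- cells 37 were held by both and 16 had no summit in any vehicle list of either genotype (43.2%, 27.1 to 60.5%, against 43.2% of all such sites). With a single library of the genotype the counts rose to 19 and 18 without the first or second wild-type dexamethasone library, and to 26 and 24 without the first or second Klf15-/- one. In lists cut to equal length they were 5 in wild type and 6 in Klf15-/-, so the counts of the genotypes then differed by 1. Replicates missed many sites at these loci too. A dexamethasone library had 75% to 78.7% of its matrix sites in its replicate. The Klf15-/- vehicle libraries shared 7 sites, which were 50% of those of the first and 41.2% of those of the second. A site missing from a list therefore does not show that the receptor was absent from it, and the vehicle lists were also the shorter ones. Without the first Klf15-/- vehicle library, the sites without a vehicle summit were 10 in wild type and 17 in Klf15-/-, and without the wild-type vehicle library 15 and 19. When only vehicle lists of the same genotype counted, they were 12 in wild type and 19 in Klf15-/-.

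**Figure D3:**
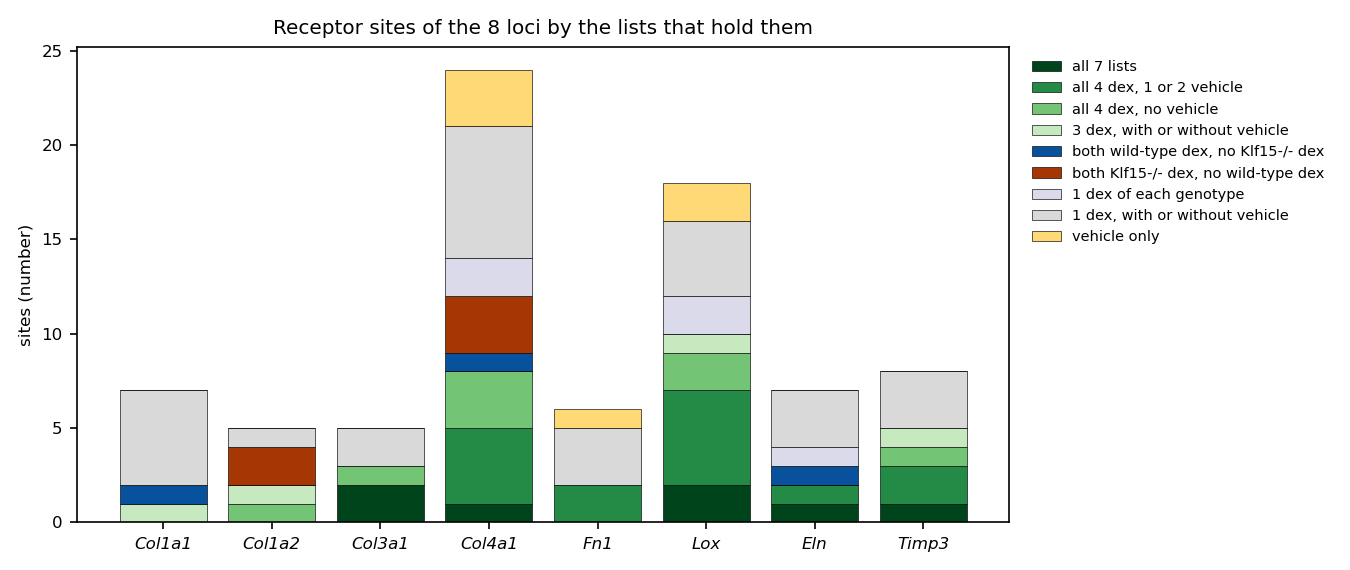
Number of receptor sites per matrix locus, stacked by the lists that hold them (dex, dexamethasone). Sites restricted to a genotype after dexamethasone are in blue (wild type, 3 sites) and brown (Klf15-/-, 5 sites), and lie at Col1a1, Col1a2, Col4a1 and Eln.

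Among the fibrillar collagens, the highest-scoring site lay in the Col3a1 window and those of the type I collagen genes scored lower. Col3a1 encodes the chain of type III collagen, and its window held 2 summits in each vehicle list, 3 and 3 in the wild-type and 3 and 5 in the Klf15-/- dexamethasone lists. Its site on chromosome 1 from 45412892 to 45413103, at 43.0 kb, was held by all 7 lists. After dexamethasone its percentile was 99.8 in each wild-type list and 99.9 in each Klf15-/- list, ranks 30, 38, 26 and 24. With vehicle it was at 81.5 in the single wild-type list and 75.2 and 70.4 in the Klf15-/- lists. It was thus among the top summits of every list with ligand and at or below percentile 81.5 in every list without it, although percentiles of lists of different length do not measure a change. The other Col3a1 site of all 7 lists, from 45299253 to 45299360 (-70.7 kb), was at 44.2 in the wild-type vehicle list and between 21.8 and 66.8 in the other 6. Near the point itself, the site from 45372955 to 45373206 (3.08 kb) was held by all 4 dexamethasone lists and no vehicle list. It scored low, with 4.81 and 30.7 in the wild-type lists, and 1.73 and 11.2 in the Klf15-/- lists.

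Col1a1 and Col1a2 encode the chains of type I collagen, the main collagen of connective tissue. The Col1a1 window held 1 summit with vehicle and 2 and 3 with dexamethasone in wild type, and in Klf15-/- cells 2 and 3 with dexamethasone. It had no site held by all 4 dexamethasone lists and no summit in either Klf15-/- vehicle list. Its highest percentile in any list was 56.5, at a site of the first Klf15-/- dexamethasone list alone (94854370, 54.4 kb). No site there lay within 20 kb of the point, the nearest being 20.8 kb below it. The site from 94734073 to 94734296 (-65.8 kb) was held by 3 dexamethasone lists, at 1.00 in the first wild-type list and 23.7 and 24.6 in the Klf15-/- lists. The second wild-type dexamethasone list had a summit just beyond it, at 94734506 (percentile 35.5), and at a linkage gap of 500 bp the window had 1 site of all 4 dexamethasone lists. The site from 94742255 to 94742405 (-57.7 kb) was held by all 3 wild-type lists, at 47.9 with vehicle and 50.6 and 34.9 with dexamethasone, and by no Klf15-/- list. The nearest Klf15-/- dexamethasone summit was 7.96 kb away.

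In the Col1a2 window, by contrast, the sites restricted to a genotype were those of Klf15-/- cells. Wild-type lists held 0 summits with vehicle and 2 and 1 with dexamethasone, and Klf15-/- lists 1 and 0 with vehicle and 5 and 4 with dexamethasone. All of its 5 sites lay below the point, and 2 of them were held by both Klf15-/- dexamethasone lists and by no wild-type list. That from 4457493 to 4457526 lay at -2.49 kb and stood at percentiles 73.3 and 73.5. It was the highest-scoring site of its window, and its nearest wild-type dexamethasone summit was 49.7 kb and its nearest vehicle summit 88.3 kb away. The other, from 4438378 to 4438407 (-21.6 kb), was at 15.1 and 4.92. The site from 4407563 to 4407746 (-52.3 kb) was held by all 4 dexamethasone lists and no vehicle list, at 18.2 and 33.3 in the wild-type lists and 7.0 and 32.4 in the Klf15-/- lists. The site from 4381134 to 4381177 (-78.8 kb) was held by 3 dexamethasone lists, at 29.1 in the first wild-type library and 28.4 and 46.7 in Klf15-/-.

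Col4a1, which encodes a chain of the type IV collagen of basement membranes, had the most sites. The wild-type lists held 5 summits with vehicle and 11 and 12 with dexamethasone, and the Klf15-/- lists 1 and 5 with vehicle and 12 and 16 with dexamethasone. No vehicle list overlapped a dexamethasone list in this number. Of the 24 sites, 8 were held by all 4 dexamethasone lists, and 3 of these by no vehicle list. One of the 3, from 11271007 to 11271057 (-39.0 kb), was at 76.7 and 87.8 in the wild-type lists and 97.5 and 93.6 in the Klf15-/- lists. Another, from 11382097 to 11382220 (72.2 kb), was at 90.7 and 88.8 in the wild-type lists and 91.5 and 92.4 in the Klf15-/- lists, with a summit of the wild-type vehicle list 0.353 kb away. The third, from 11259979 to 11260045 (-49.99 kb), was at 20.2 and 66.0 in the wild-type lists and 32.2 and 57.8 in the Klf15-/- lists.

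A neighbouring Col4a1 site, from 11273638 to 11273764 (-36.3 kb), reached 90.1 and 88.2 in the wild-type lists and 94.6 and 95.2 in the Klf15-/- lists with dexamethasone. It was also held with vehicle, at 59.6 in wild type and 36.3 in the second Klf15-/- library. The site from 11323354 to 11323435 (13.4 kb) was the only one of this window held by all 7 lists, at 59.6 in the wild-type list and 65.6 and 37.7 in the Klf15-/- lists with vehicle. With dexamethasone it was at 17.8 and 43.1 in the wild-type lists and 60.0 and 52.8 in the Klf15-/- lists. The site from 11328213 to 11328325 (18.3 kb) was at 59.2 and 81.4 in wild type, at 85.8 and 85.8 in Klf15-/- with dexamethasone, and at 76.6 in the second Klf15-/- vehicle list. The Col4a1 sites above percentile 90 in a dexamethasone list were thus held by at most 2 of the 3 vehicle lists, and the site of all 7 lists was not among them.

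Fibronectin and elastin differed in where their sites lay. The Fn1 window held 2 summits with vehicle and 3 and 3 with dexamethasone in wild type, and 2 and 1 with vehicle and 2 and 3 with dexamethasone in Klf15-/- cells. It had 6 sites, of which 2 were held by all 4 dexamethasone lists. That from 71799055 to 71799115 lay at 99.1 kb, close to the edge of the window, at 94.1 and 89.7 in the wild-type lists and 92.9 and 89.7 in the Klf15-/- lists, and at 74.3 and 87.0 in the wild-type and the second Klf15-/- vehicle lists. That from 71738140 to 71738214 (38.2 kb) was at 24.5 and 47.7 in the wild-type lists and 81.5 and 88.5 in the Klf15-/- lists, with 65.5 and 31.3 in the wild-type and the first Klf15-/- vehicle lists. At the point itself (71700162, 0.162 kb) only the first wild-type dexamethasone library had a summit, at 49.0.

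Eln, which encodes elastin, had its recurrent sites 28.6 and 32.4 kb above the point. The site from 135248525 to 135248647 was held by all 7 lists, at 94.7 and 94.5 in the wild-type lists and 88.9 and 90.4 in the Klf15-/- lists with dexamethasone. With vehicle it was at 84.3 in the wild-type list and 17.52 and 92.3 in the Klf15-/- lists. The site from 135252373 to 135252425 was at 93.2 and 94.8 in the wild-type lists and 78.0 and 89.5 in the Klf15-/- lists, with 87.1 and 58.6 in the wild-type and the second Klf15-/- vehicle lists. Both were thus high in the wild-type list without ligand. Another Eln site, from 135266544 to 135266649 (46.6 kb), was held by all 3 wild-type lists, at 35.6 with vehicle and 6.35 and 49.3 with dexamethasone, and by no Klf15-/- list. The nearest Klf15-/- dexamethasone summit lay 14.1 kb away. In summits, the wild-type lists held 3 with vehicle and 5 and 5 with dexamethasone, and the Klf15-/- lists 1 and 2 with vehicle and 3 and 2 with dexamethasone.

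Lox, which encodes lysyl oxidase, had 9 of its 18 sites in all 4 dexamethasone lists, the most of any of these genes. The wild-type lists held 6 summits with vehicle and 11 and 11 with dexamethasone, and the Klf15-/- lists 6 and 5 with vehicle and 14 and 11 with dexamethasone. The highest site found with ligand alone at any of the 8 loci lay here, from 52760346 to 52760372 (70.4 kb). It was at 96.5 and 97.1 in the wild-type lists and 97.5 and 98.1 in the Klf15-/- lists, and the nearest vehicle summit was 2.09 kb away. The site from 52720110 to 52720173 (30.1 kb) was also without a vehicle summit, at 53.9 and 69.1 in the wild-type lists and 89.9 and 81.1 in the Klf15-/- lists. Just below it, the site from 52718511 to 52718728 (28.6 kb) was held by all 7 lists, at 82.3 in the wild-type list and 68.6 and 56.3 in the Klf15-/- lists with vehicle. With dexamethasone it was at 81.7 and 75.7 in the wild-type lists and 92.9 and 93.2 in the Klf15-/- lists.

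Close to the Lox point, the site from 52694981 to 52695143 (5.06 kb) was held by all 7 lists, at 77.8 in the wild-type vehicle list against 11.0 and 17.1 in the Klf15-/- vehicle lists. With dexamethasone its percentiles were 67.9 and 75.7 in the wild-type lists and 80.6 and 77.4 in the Klf15-/- lists. The site from 52689726 to 52689909, at -0.182 kb, was at 89.7 and 88.8 in the wild-type lists and 83.5 and 79.6 in the Klf15-/- lists with dexamethasone, and at 50.9 and 14.0 in the wild-type and the first Klf15-/- vehicle lists. It was the recurrent site nearest to any of the 8 points and was named after its values were seen. The site from 52638413 to 52638499 (-51.5 kb) had the highest vehicle percentile of the 8 loci, 96.0 in wild type, against 34.2 in the second Klf15-/- vehicle list and none in the first. With dexamethasone it was at 85.7 and 92.8 in the wild-type lists and 84.8 and 73.95 in the Klf15-/- lists.

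Timp3, which encodes the matrix-bound inhibitor of metalloproteinases, had sites of middling score, the highest at percentile 74.3. The wild-type lists held 5 summits with vehicle and 6 and 6 with dexamethasone, and the Klf15-/- lists 1 and 2 with vehicle and 6 and 4 with dexamethasone. The site from 85733082 to 85733192 (-26.9 kb) was held by all 4 dexamethasone lists and no vehicle list, at 53.4 and 74.3 in the wild-type lists and 68.8 and 67.9 in the Klf15-/- lists, with the nearest vehicle summit 19.8 kb away. The site from 85752950 to 85753019 (-7.02 kb) was at 67.6 and 66.6 in the wild-type lists and 62.6 and 73.5 in the Klf15-/- lists with dexamethasone, and at 29.6 with vehicle in wild type alone. The site from 85791047 to 85791221 (31.1 kb) was held by all 7 lists, between 47.7 and 65.6 in each. That from 85794640 to 85794821 (34.7 kb) was held by 6 lists, all but the first Klf15-/- vehicle list, from 13.2 to 74.3.

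**Figure D4:**
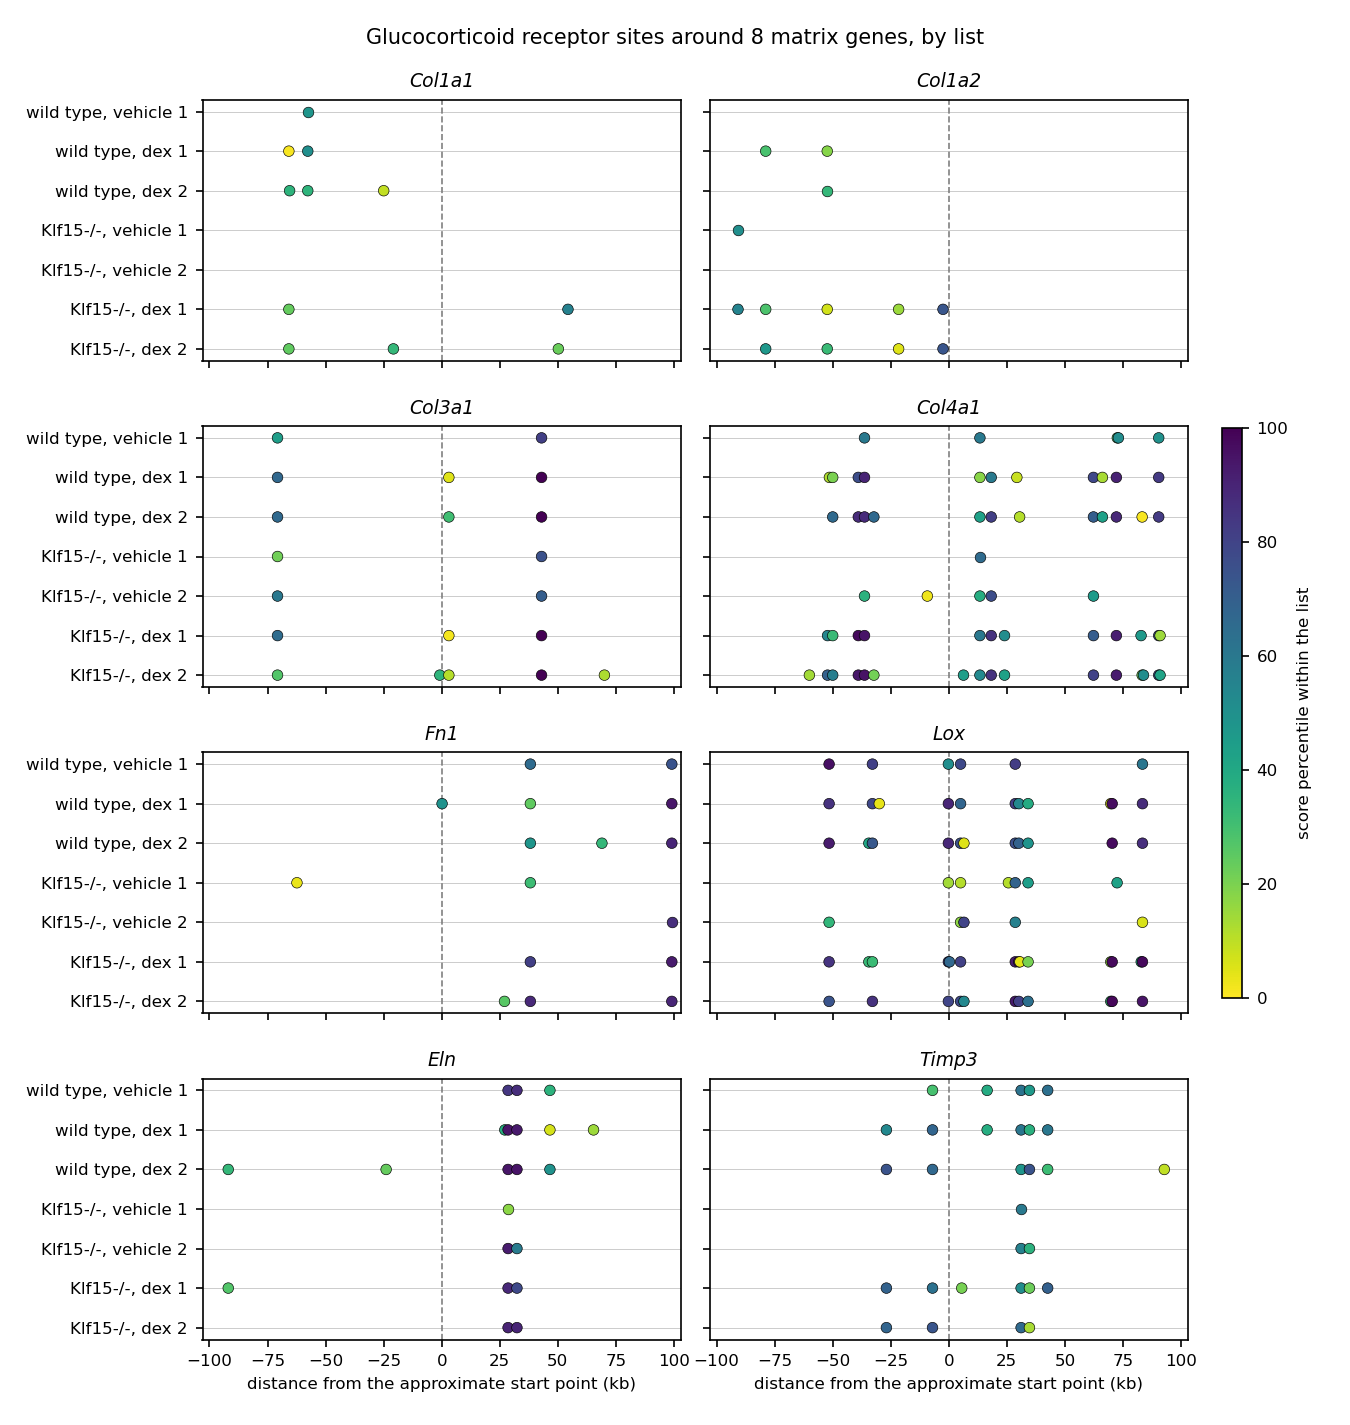
Receptor sites in each of the 7 lists by distance from the approximate start point (dashed line) of the 8 genes, in kb of increasing genome position, coloured by the score percentile within the list. Columns of points are sites held by several lists, such as the site of all 7 lists at 43.0 kb in the Col3a1 window, and Col4a1 and Lox carry the most.

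Sites restricted to a genotype after dexamethasone took a share of the matrix sites whose interval includes the share over all sites. Of 33 sites of both wild-type libraries, 3 had no Klf15-/- dexamethasone summit (9.09%, 1.92 to 24.3%, against 12.8% of all such sites). Of 37 sites of both Klf15-/- libraries, 5 had no wild-type dexamethasone summit (13.5%, 4.54 to 28.8%, against 23.2% of all such sites). The highest percentile of a restricted site was 73.5. The median of the mean percentile was 28.2 for the 3 wild-type and 47.1 for the 5 Klf15-/- sites, and 36.2 and 39.4 over all restricted sites of the genome. Besides those at Col1a1, Eln and Col1a2, the restricted sites lay in the Col4a1 window. The wild-type one, from 11376101 to 11376208 (66.2 kb), was at 13.0 and 43.4, with a Klf15-/- dexamethasone summit 3.82 kb away. The Klf15-/- ones, from 11257787 to 11257803 (-52.2 kb), from 11333922 to 11334064 (24.0 kb) and from 11400937 to 11401015 (91.0 kb), stood at 53.9 and 69.4, at 51.5 and 42.7, and at 14.7 and 42.1. Their nearest wild-type dexamethasone summits were 0.790, 5.24 and 0.554 kb away, so with no such summit allowed within 1000 bp the Klf15-/- count was 3. With a single library of the genotype the counts were 9 and 10 without the first or second wild-type library and 13 and 12 without the first or second Klf15-/- library. In lists cut to equal length they were 0 in wild type and 2 in Klf15-/-.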

How the data were processed

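ChIP-seq summit lists of 7 libraries were used, 1 deposited list per library. Per the submitters' processing notes, the tools were CASAVA 1.4, Bowtie2 and SAMtools and the build was mm9. How peaks were called, against which control and at which threshold, is not stated in the labels or files. The deposited score is the authors' value per summit, on a scale that is not stated. It was used only as a percentile within its own list (0 to 100, ties shared equally). Read depth is unknown, and lists grow with depth and enrichment.

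All summits were linked at a gap of 200 bp by single linkage. A list held a site when it had a summit in it. Numbers per library were compared with exact two-sided permutation tests of libraries, counts of sites were set beside those over all sites or windows, and shares carry exact (Clopper-Pearson) 95% intervals. Named sites were the 3 held by most lists in a window (ties by mean percentile), those of all 7 lists, those of all 4 dexamethasone and no vehicle list, and those restricted to a genotype. Gene order and promoters came from RefSeq GRCm38.p6, and no coordinates were taken from it. Python 3.11.15, numpy 2.4.6, pandas 2.3.3 and scipy 1.17.1 were used. The assignment of summits to windows was checked against a direct count on simulated lists. The linkage was run on the same simulated lists without a pass criterion. The genes, windows and lists were chosen with earlier results of these data known. Alternatives were other windows, gaps, score filters, scales and libraries left out.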

Additional observations from a re-analysis of the deposited data

How the results depend on the processing

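Of 236 alternative values, 179 were counted as kept, 55 as moved and 2 as reversed. A number or share of sites was kept when it stayed within its bounds. A difference between groups of libraries was kept unless its sign reversed, whatever its size, so a treatment difference of 0.49 counted as kept. The reversals were in the Klf15-/- minus wild-type difference after dexamethasone, which became 0.36 per 10000 with summits above the median score and 4 in unscaled summits. In lists cut to equal length that difference was 0, which has no direction but was counted as kept. The difference between treatments stayed positive under every alternative run, from 0.49 (50 kb) to 27.2 (unscaled numbers of summits). No p-value passed 0.05, which these designs cannot reach.

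Smaller or larger windows and shorter lists change counts by construction. With 50 kb on either side, the median number of sites per window was 4 (7 with 100 kb), the sites without a vehicle summit were 5 in wild type and 8 in Klf15-/-, and the restricted sites 1 and 3. With 200 kb the median was 13.5 and the restricted sites were 5 and 8. With summits above the median score the median was 2, the wild-type restricted sites were 0 and the Klf15-/- sites without a vehicle summit 10. In lists cut to equal length the median was 3, the sites without a vehicle summit were 5 and 6, and the restricted sites 0 and 2. Where 1 library of the genotype sufficed, the restricted sites were 16 and 20, and with no other-genotype summit within 1000 bp the Klf15-/- ones were 3. The share of wild-type dexamethasone sites found in the replicate was 87.5% for library 2 above the median score, and 91.3% and 87.5% for libraries 1 and 2 in equal lists. Leaving out each of the 7 libraries in turn (the wild-type vehicle one chosen after the data were seen) gave 9 to 19 wild-type and 14 to 26 Klf15-/- sites without a vehicle summit, 3 to 10 and 5 to 13 restricted sites.

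With same-numbered libraries paired as a replicate block, the treatment difference in Klf15-/- was 3.58 and the genotype difference -3.10 (exact permutation within 2 pairs, p = 0.5 for each, the smallest possible). The labels give these libraries only a shared number. Differences in percentile between the 2 members of a group correlated at -0.0058 between genotypes over 8977 sites and at 0.0192 between treatments over 2919. Only sites held by all 4 lists entered, and percentiles cannot show a shift of a whole library. Whether same-numbered libraries share a culture or batch was thus not determined. Scaling the treatment difference to the same chromosomes, chosen after the data were seen, gave 8.05 (exact permutation p = 0.0571, the smallest possible). That p-value rested on a slight margin: 60.40 in the first Klf15-/- dexamethasone library and 60.29 in the wild-type vehicle library.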
